A study of Bos taurus with 6 samples.

Results

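The miR-29 and miR-30 families were examined in the intramuscular fat (IMF) of castrated and intact male cattle. Members were taken by name from the deposited miRNA counts, as bta-miR-29 or bta-miR-30 followed by a letter from a to f, with or without an arm suffix. This gave 13 mature sequences, 6 of the miR-29 and 7 of the miR-30 family, out of 793 known bovine and 8800 sequences in all. Chinese Qinchuan males were weaned at 3 months, and all were slaughtered at 24 months, when fat was dissected from the sternomandibularis, a neck muscle. Steers had been castrated by surgery at 6 months, and bulls were left intact on the same diet. The comparison asks which miRNAs differ in this fat after castration. Small RNA was sequenced in 2 libraries of steers and 2 of bulls, and mRNA in 1 library of each. By the design text a small RNA library is a pool of 3 animals and an mRNA library a pool of 6, whereas the sample labels give 1 and 3. All animals came from a single sire, so they represent closely related cattle. Because animals were pooled, the spread between libraries is that between pools.

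A miRNA is a short RNA that guides the silencing complex to messenger RNAs, chiefly through its seed, bases 2 to 8 from the 5′ end. Sequences with the same seed can bind many of the same messages. The miR-29 family is known as a repressor of collagens and other matrix proteins and of DNA methyltransferases. The miR-30 family is abundant in fat, kidney and heart, and members of it have been reported to promote adipocyte formation in culture, with RUNX2, a transcription factor of bone formation, among the targets.

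The sequences that define the families are shown with the seed in capitals, from 5′ to 3′ and with T for U, as the study's supplementary list of known miRNAs gives them. The 6 miR-30 sequences from the 5p arm share the seed GTAAACA and are 22 to 24 bases long.
bta-miR-30a-5p: tGTAAACAtcctcgactggaagct
bta-miR-30d: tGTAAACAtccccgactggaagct
bta-miR-30e-5p: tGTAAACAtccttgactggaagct
bta-miR-30b-5p: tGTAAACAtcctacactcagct
bta-miR-30c: tGTAAACAtcctacactctcagc
bta-miR-30f: tGTAAACAccctacactctcagct

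Counted from the 5′ end of miR-30a-5p, miR-30d differed from it by the single substitution T12C and miR-30e-5p by C13T. Compared base by base without gaps, miR-30b-5p had 7 substitutions, miR-30c 5 and miR-30f 6. The letters thus fall into a pair of groups, miR-30a, miR-30d and miR-30e with one kind of 3′ end, and miR-30b, miR-30c and miR-30f with another.

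Of the miR-29 family, 5 sequences belong to the 3p arm. They are shown because their seeds are not all identical.
bta-miR-29a: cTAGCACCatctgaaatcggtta
bta-miR-29b: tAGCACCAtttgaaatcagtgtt
bta-miR-29c: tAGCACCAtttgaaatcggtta
bta-miR-29d-3p: tAGCACCAtttgaaatcgatta
bta-miR-29e: tAGCATCAtttgaaatcagtgttt

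MiR-29b, miR-29c and miR-29d-3p share the seed AGCACCA. MiR-29a is listed with 1 additional base at its 5′ end, which moves bases 2 to 8 to TAGCACC. Aligned without that base, it differed from miR-29c by T10C in the numbering of miR-29c. The counts are given per named sequence, so the base at which the reads started is not known from them. MiR-29e carried C6T within the seed relative to miR-29c, and 3 further substitutions. MiR-29d-3p differed from miR-29c by G19A. The other 2 members, miR-29d-5p and miR-30b-3p, come from the opposite arms of their precursors and have the unrelated seeds GACCGAT and TGGGAGG.

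In the cattle annotation of RefSeq (assembly ARS-UCD2.0), the genes lie in pairs within 50 kb of each other. The pairs are MIR30A with MIR30F, MIR30B with MIR30D, MIR30C with MIR30E, MIR29A with MIR29B-1, MIR29B-2 with MIR29C, and MIR29D with MIR29E. MIR30C and MIR30E lie within NFYC, which encodes a subunit of the transcription factor NF-Y. Positions are not given because the study used an older build.

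The total count was 10452582 and 8859844 in the libraries of steers and 7784227 and 6556511 in those of bulls. The members' share of these counts was 1.61% and 1.42% in steers and 2.37% and 1.82% in bulls. Levels are given as CPM, counts scaled to a common library total, after TMM scaling, which sets libraries to a common level by most of their sequences. The TMM factors were 0.746 and 0.968 in steers and 0.972 and 1.42 in bulls. They moved opposite to the share of miR-143 and miR-10b, which was 45.8% and 33.8% in steers and 25.8% and 19.3% in bulls. Lists of miRNAs typical of other cells also differed in their summed levels. All 6 muscle miRNAs of the list were present and summed to 2208 and 3377 CPM in steers and 5842 and 5394 CPM in bulls, with 5 of 6 lower in both steers libraries than in both bulls libraries. The 7 immune sequences summed to 1510 and 1243 against 3833 and 1893 CPM (3 of 7 lower in this sense). The 3 erythroid miRNAs summed to 3401 and 7360 CPM in steers and 2248 and 1757 CPM in bulls. Among them, 2 were lower and 1 higher in steers. The higher sum in steers thus came from 1 miRNA and does not stand for the list as a whole. Of 7 epithelial miRNAs 6 were present, and they summed to at most 4.76 CPM in a library (4 lower in steers). The part of these cell types in the results on miR-29 and miR-30 was not tested. In bulk tissue, fewer cells of a type and less RNA per cell cannot be told apart.

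MiR-30a-5p was the most abundant member and ranked 19 by mean level among the 396 known bovine miRNAs tested. It stood at 12442 and 7499 CPM in steers and at 9715 and 4282 CPM in bulls. The highest library was of steers and the lowest of bulls, but the second steers library was below the first of bulls, so the groups overlapped. Its log2 fold change (steers over bulls) was 0.51 (SE 0.46, adjusted p = 0.476 from edgeR's quasi-likelihood test).

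MiR-30d, which differs from miR-30a-5p by 1 base, ranked 31. Its level was 4952 and 4265 CPM in steers and 6316 and 3337 CPM in bulls. Both libraries of steers lay between those of bulls, and the log2 fold change was -0.07 (SE 0.47, adjusted p = 0.948 from edgeR). Its sign depended on the scaling, with 0.11 under upper-quartile scaling.

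MiR-30e-5p, also 1 base away from miR-30a-5p, had 1385 and 857 CPM in steers and 3161 and 1534 CPM in bulls. Both steers libraries were below both bulls libraries, and the mean was 2.09-fold higher in bulls. The log2 fold change was -1.07 (SE 0.49, adjusted p = 0.130 from edgeR), so it was not called, since a call required the adjusted p to be below 0.05 and the change to exceed 1 on the log2 scale.

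The 3 members with the other 3′ end had lower values in steers as well. MiR-30b-5p had 433 and 306 CPM in steers and 776 and 667 CPM in bulls, and the estimate was -0.96 (SE 0.50, adjusted p = 0.190 from edgeR). MiR-30c had 784 and 627 CPM in steers and 1277 and 906 CPM in bulls, which gave an estimate of -0.63 (SE 0.49, adjusted p = 0.412 from edgeR). MiR-30f had 161 and 109 CPM against 286 and 173 CPM, which gave -0.76 (SE 0.48, adjusted p = 0.293 from edgeR). In each of the 3, the groups did not overlap. For miR-30f the margin was narrow, from 161 CPM in the higher steers library to 173 CPM in the lower bulls library. None of the 3 was called.

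MiR-29a was the main member of its family, at rank 56. It had 1241 and 926 CPM in steers and 2562 and 1691 CPM in bulls. All libraries of steers were below those of bulls, and the means were 1083 ± 222 CPM (SD, n = 2) in steers and 2127 ± 616 CPM in bulls. The log2 fold change was -0.97 with an SE of 0.49, and the adjusted p was 0.174 in edgeR's test.

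MiR-29c followed with 185 and 128 CPM in steers and 299 and 180 CPM in bulls. Here the lower bulls library was below the higher steers library, so the groups overlapped. The log2 fold change was -0.61 (SE 0.49, adjusted p = 0.416 from edgeR). MiR-29b, which is made from 2 precursors, had 21.4 and 11.8 CPM in steers and 40.7 and 21.3 CPM in bulls, and overlapped by a narrow margin. Its log2 fold change was -0.90 (SE 0.50, adjusted p = 0.222 from edgeR).

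The remaining members were scarce. MiR-29d-3p was read 7 and 6 times in steers and 25 and 12 times in bulls, and it had the lowest log2 fold change of the members tested, -1.49 (SE 0.68, adjusted p = 0.125 from edgeR). MiR-29d-5p, the opposite arm, was read 59 and 19 times against 37 and 42 times, so that the libraries of steers enclosed those of bulls, and the estimate was 0.05 (SE 0.53). MiR-30b-3p was read 14 and 19 times against 14 and 13 times, with overlap and an estimate of 0.31 (SE 0.63). With total counts both opposite-arm estimates turned negative, to -0.51 and -0.12. All 3 rest on few reads. MiR-29e was read 0 and 1 times in steers and 1 and 3 times in bulls. It did not pass the filter on low counts and was not tested, and a count of 0 in the first library of steers allows up to 3 counts there.

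**Figure D1:**
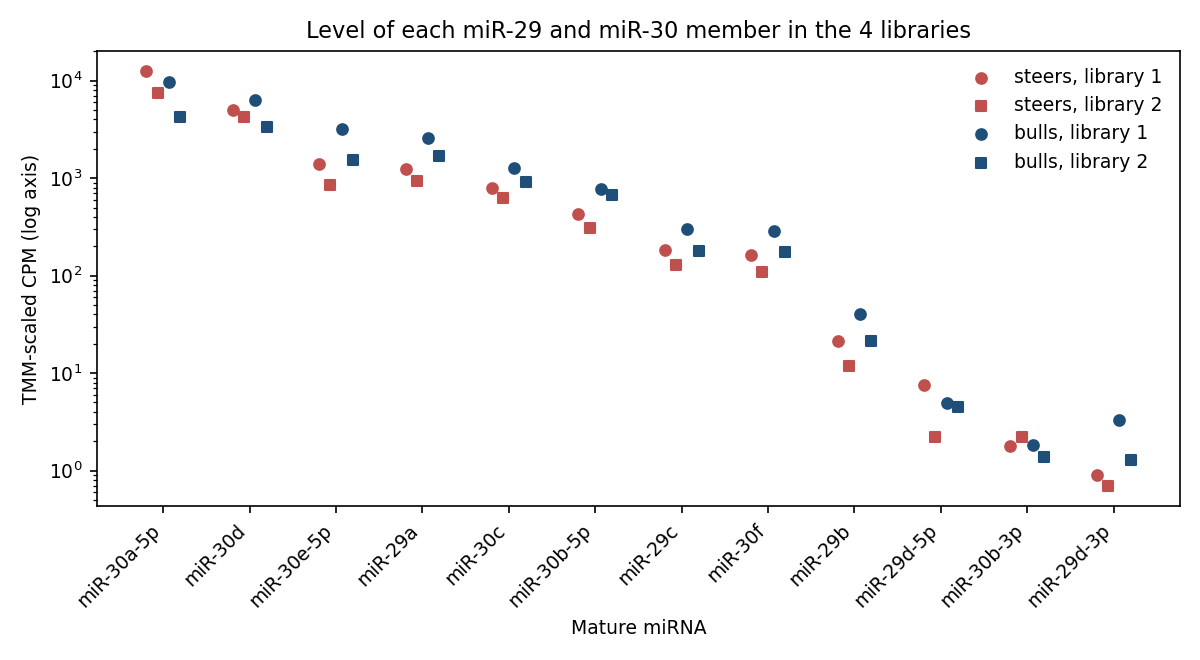
Level of the 12 members tested in each library, as TMM-scaled CPM on a log axis, ordered by mean level. Red symbols are steers and blue symbols bulls, circles the first library and squares the second; miR-30a-5p and miR-30d interleave, whereas both steers libraries of miR-30e-5p, at 1385 and 857 CPM, lie below those of bulls.

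Of the 12 members tested, 0 were called lower and 0 higher in steers by edgeR's quasi-likelihood test, and 3 (miR-29a, miR-29d-3p and miR-30e-5p) had an unadjusted p under 0.05, as did 27.3% of all sequences tested. DESeq2 and limma-voom also called 0, with 3 and 2 members at an unadjusted p under 0.05. Under the other fits this number ran from 0 (upper-quartile scaling) to 8 (total counts). Over all 1073 sequences tested, 7.08% were called lower and 7.08% were called higher (76 each, against 52 lower and 101 higher with upper-quartile scaling), and among the 396 known bovine miRNAs 7.58% were called lower. Both steers libraries were below both bulls libraries in 6 of the 12, namely miR-29a, miR-29d-3p, miR-30b-5p, miR-30c, miR-30e-5p and miR-30f. The same held for 31.5% of all sequences tested and for 35.4% of the known bovine miRNAs. No member had both steers libraries above both bulls libraries, which held for 26.7% of all sequences and 24.0% of the known bovine miRNAs. A log2 fold change below 0 was found for 9 of the 12 (8 to 11 over the other fits of these 12), compared with 58.1% of the known bovine miRNAs tested. The median log2 fold change was -0.70 over the members, -0.15 over the known bovine miRNAs and -0.07 over all sequences tested. Total counts without TMM moved the last to -0.56 and the members' median to -1.15, so that the distance between them was -0.59 instead of -0.63. With 1 library left out this distance ranged from -0.25 (without the first library of bulls) to -1.01 (without the second).

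The bulls libraries differed from each other in most members, and single libraries decided some calls. Without the second library of bulls, miR-29a was called at a log2 fold change of -1.28 (adjusted p = 0.0337 from edgeR) and miR-30e-5p at -1.53 (adjusted p = 0.00618 from edgeR), and miR-30a-5p lay at -0.0021. Without the first library of bulls, miR-30a-5p was called higher, at 1.35 (adjusted p = 0.0134 from edgeR), and miR-30d was at 0.61. The lower members then came closer to 0, with miR-29a at -0.51 (adjusted p = 0.498 from edgeR), miR-30e-5p at -0.32 (adjusted p = 0.700 from edgeR), miR-29d-3p at -0.54, miR-29b at -0.23, miR-30c and miR-30f at -0.22 and miR-29c at -0.07. MiR-30b-5p moved least of the 8, to -0.71. Over the 14 refits tried, the adjusted p from edgeR, DESeq2 or limma ran from 0.0205 to 0.863 for miR-29a, from 0.00618 to 0.863 for miR-30e-5p and from 0.0134 to 0.997 for miR-30a-5p. In the fits without a library of bulls, the lone library of bulls is assumed to vary like those of steers. The number of calls over all sequences also depended on the library left out, so the members' calls in these fits are not particular to the families.

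**Figure D2:**
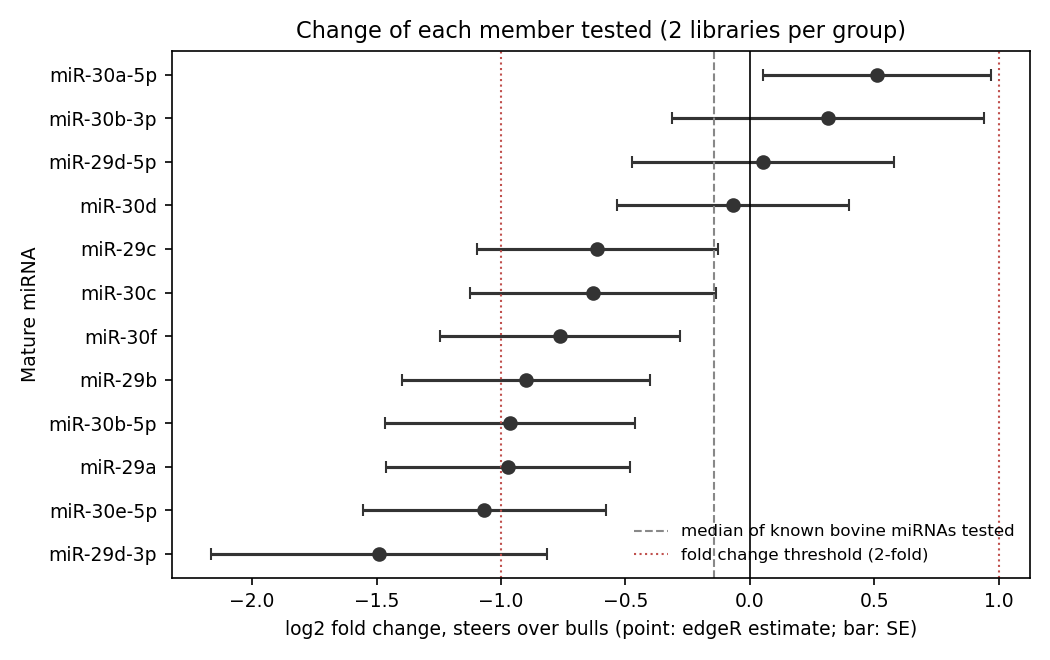
Log2 fold change of steers over bulls for the 12 members tested, with bars of 1 SE from edgeR, a dashed line at the median of the known bovine miRNAs tested (-0.15) and dotted lines at the 2-fold threshold. The estimates run from -1.49 for miR-29d-3p to 0.51 for miR-30a-5p, and 8 of the 12 lie below -0.5.

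The levels were then summed by family. The 5 miR-29 sequences of the 3p arm summed to 1448 and 1067 CPM in steers and to 2905 and 1894 CPM in bulls, without overlap. This sum is mostly miR-29a in every library, and miR-29b and miR-29c overlapped on their own. The 6 miR-30 sequences of the 5p arm summed to 20157 and 13664 CPM in steers and to 21531 and 10900 CPM in bulls, where both steers libraries lay between those of bulls. Scaled to total counts instead, the sum was lower in steers (log2 difference -0.35, against 0.12 with TMM). Within the miR-30 family the sum divided by member. MiR-30a-5p and miR-30d together had 14579 ± 3981 CPM (SD, n = 2) in steers and 11825 ± 5948 CPM in bulls. The other 4 had 2331 ± 610 CPM in steers and 4390 ± 1570 CPM in bulls. This split follows the values of the members and not their 3′ ends. Each of the other 4 was already lower in steers without overlap, so their sum could not overlap either.

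Ratios between members within a library do not depend on how libraries are scaled. MiR-30a-5p supplied 61.7% and 54.9% of the miR-30 counts of the 5p arm in steers and 45.1% and 39.3% in bulls. MiR-30e-5p supplied 6.87% and 6.27% in steers and 14.7% and 14.1% in bulls, so that replicates of a group differed by less than 1 percentage point. The share of miR-30d was 24.6% and 31.2% in steers and 29.3% and 30.6% in bulls, and overlapped.

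The smaller shares also had lower values in steers. MiR-30c made up 3.89% and 4.59% in steers and 5.93% and 8.31% in bulls, miR-30b-5p 2.15% and 2.24% against 3.60% and 6.12%, and miR-30f 0.800% and 0.801% against 1.33% and 1.59%. For these 3 the groups did not overlap. The spread between the bulls libraries was larger than that between the steers libraries in each of them. As parts of the same whole the miR-30 shares are not independent, and a larger share of miR-30a-5p leaves less for the others.

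**Figure D3:**
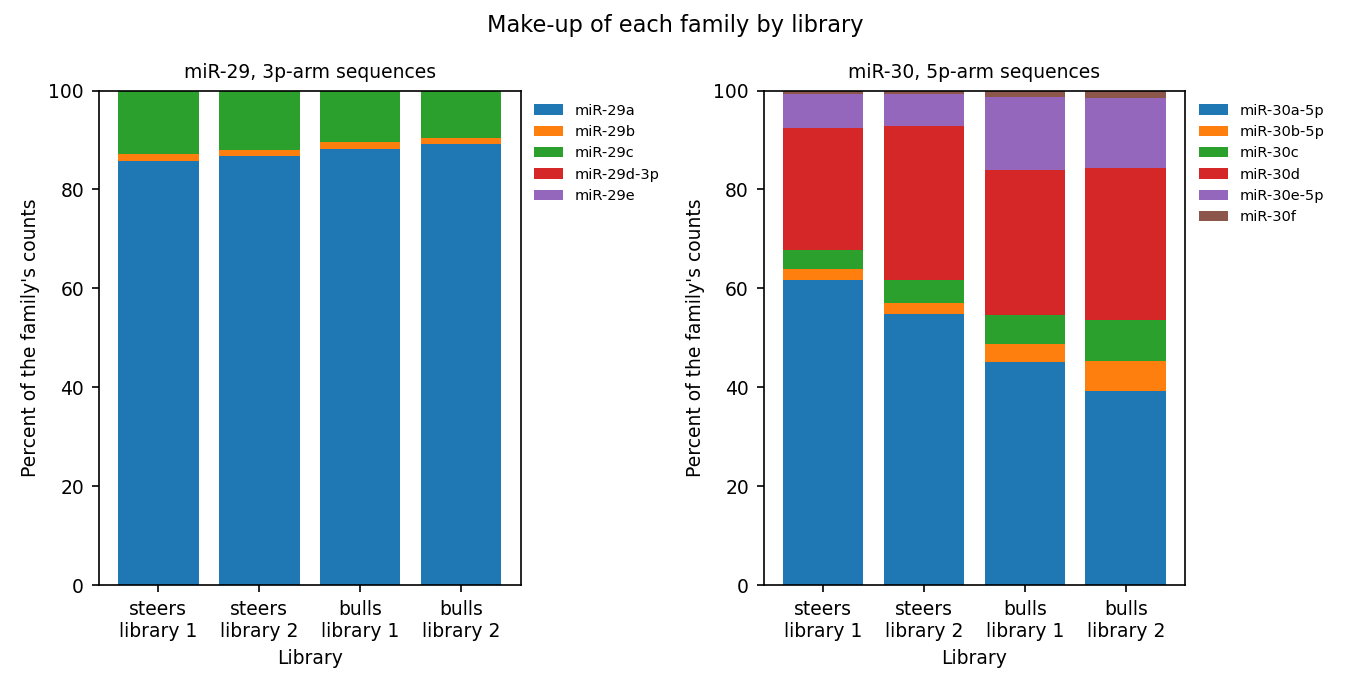
Percent of each family's counts that each member supplied in the 4 libraries, for the miR-29 sequences of the 3p arm (left) and the miR-30 sequences of the 5p arm (right). MiR-29a takes most of its family in every library, while miR-30a-5p takes 61.7% and 54.9% in steers and 45.1% and 39.3% in bulls.

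Per count of miR-30a-5p there were 0.111 and 0.114 counts of miR-30e-5p in steers and 0.325 and 0.358 in bulls. The mean ratio was thus 3.03-fold higher in bulls, with 0.113 ± 0.00215 (SD, n = 2) in steers and 0.342 ± 0.0231 in bulls. The difference between the means was 0.229, and each SD rests on only 2 libraries. An exact permutation test (two-sided) of 2 libraries against 2 gave p = 0.33, which is the smallest p this design allows. With Benjamini-Hochberg adjustment over the 12 ratios computed, this exact test gave 0.44.

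Relative to miR-30a-5p, the other members of the 5p arm were also more frequent in bulls. The mean ratio in bulls was 3.11-fold that of steers for miR-30b-5p, 2.54-fold for miR-30f, 2.34-fold for miR-30c and 1.48-fold for miR-30d. In all 5 ratios, miR-30e-5p included, the groups did not overlap, and each exact permutation test (two-sided) gave 0.33. How often ratios between miRNAs outside the families keep these groups apart was not computed. The 5 ratios share the miR-30a-5p count as denominator and are not independent of each other. In each of them the 4 libraries stood in the order of their share of miR-143 and miR-10b, from the highest share to the lowest, which is also the order of the share of miR-30a-5p. The part of this difference in library make-up was not tested.

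**Figure D4:**
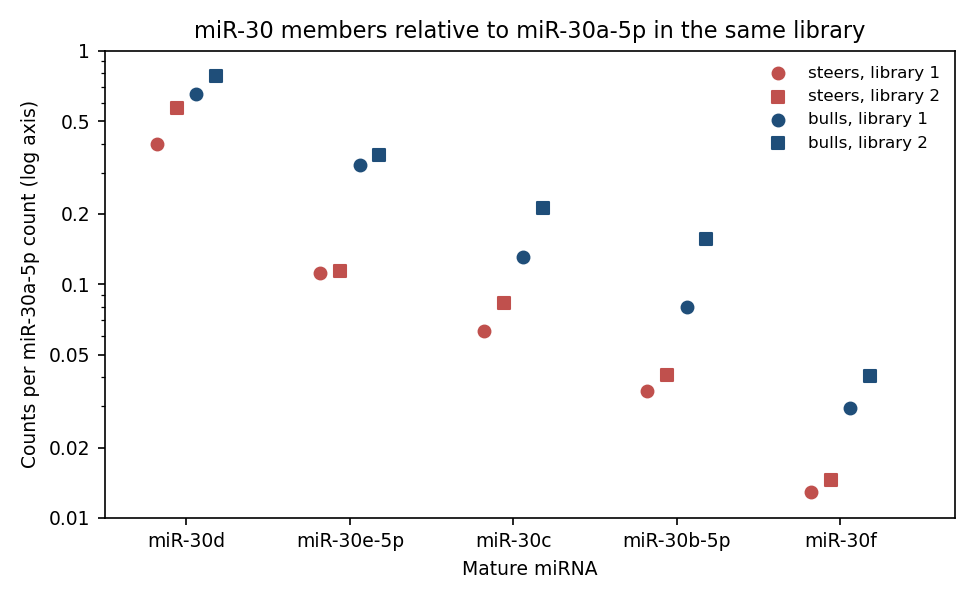
Counts of 5 miR-30 members per count of miR-30a-5p in the same library, on a log axis, with steers in red and bulls in blue. All steers symbols lie below the bulls symbols of the same member, and for miR-30e-5p they lie at 0.111 and 0.114 against 0.325 and 0.358.

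Neighbouring genes were compared in the same way. MiR-30f, whose gene lies beside that of miR-30a, had 0.0130 and 0.0146 counts per miR-30a-5p count in steers and 0.0294 and 0.0405 in bulls. MiR-30b-5p had 0.0875 and 0.0718 counts per count of its neighbour miR-30d in steers and 0.123 and 0.200 in bulls. In both pairs the ratios of the groups were apart. MiR-30e-5p and miR-30c, which share NFYC as host gene, had a ratio of 1.77 and 1.37 in steers and 2.48 and 1.69 in bulls, which overlapped. In the pooled mRNA libraries NFYC was counted 720 times in steers and 508 times in bulls, which after scaling was 0.38 (95% counting interval 0.22 to 0.55) on the log2 scale.

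In the miR-29 family the shares differed by a few percentage points. MiR-29a supplied 85.7% and 86.8% of the counts of the 3p arm in steers and 88.2% and 89.3% in bulls. MiR-29c supplied 12.8% and 12.0% in steers and 10.3% and 9.52% in bulls. Both shares were apart between the groups, and as parts of the same whole they are not independent. There were 6.69 and 7.21 counts of miR-29a per count of miR-29c in steers and 8.56 and 9.37 in bulls. The groups were apart by a mean of 1.29-fold, and the exact permutation test (two-sided) again gave its smallest value, 0.33. The ratio of miR-29a to miR-29b, whose genes are neighbours, was 57.9 and 78.5 in steers and 62.9 and 79.3 in bulls, and overlapped. The ratio of miR-29c to miR-29b, likewise from neighbouring genes, was 8.65 and 10.9 in steers and 7.35 and 8.46 in bulls, and was apart. As miR-29b has a precursor beside each of these genes, its counts can stem from either. Neither ratio is thus that of a single neighbouring pair.

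The arms of a precursor could be compared for miR-30b and miR-29d. There were 241 and 138 counts of miR-30b-5p per count of miR-30b-3p in steers and 419 and 478 in bulls, without overlap. As miR-30b-3p had 13 to 19 counts in each library, this ratio rests on few reads. For miR-29d the 5p arm had 8.43 and 3.17 counts per count of the 3p arm in steers and 1.48 and 3.50 in bulls, and the groups overlapped.

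A further 15 rows carry human, mouse or rat names of the 2 families. Together they summed to 116 and 70 counts against 131 and 116 in bulls, at most 0.0972% of the members' counts in a library. Nearly all were in rno-miR-29a-3p, read 74 and 28 times in steers and 99 and 76 times in bulls, and rno-miR-29c-3p, read 39 and 38 against 27 and 32 times. The other 13 had at most 3 counts over all libraries. The rat miR-29a row equalled at most 0.765% of the bovine miR-29a counts, and the rat miR-29c row at most 3.45% of those of miR-29c. Reads that fit several of the near-identical members could have been assigned to any of them, and how they were treated is not given in the sources used here.

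Genes described as targets of the families in mammals, and genes of the miRNA machinery, were then looked up in the mRNA libraries, with totals of 12677375 (steers) and 9868415 (bulls). Each group had 1 pooled mRNA library, so the differences have no replicate check, and the intervals cover counting error only. Among the 13501 genes with at least 20 counts in both libraries together, 5.34% were more than 2-fold higher and 10.2% more than 2-fold lower in steers, and the median log2 fold change was 0.02. The lists came from general knowledge, and no binding site was searched for.

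Of the miR-29 target list, 28 of 29 genes were in the table and 27 had at least 20 counts. In steers, 7 of these were more than 2-fold higher and 1 more than 2-fold lower, and the median log2 fold change of the list was 0.49. As the list was chosen with results of these data known, its counts are a description. INSIG1, a brake on sterol and lipid synthesis, was counted 1237 times in steers and 145 times in bulls, and stood at 2.97 on the log2 scale (interval 2.72 to 3.23). LPL, the lipase that releases fatty acids from circulating triglycerides, was counted 7811 and 2253 times and stood at 1.67 (1.60 to 1.74). The study itself singled LPL out on these libraries, and also reported it as significantly higher in steers by qRT-PCR. COL5A1, a chain of type V collagen, was counted 4091 and 1461 times, at 1.36 (1.28 to 1.45).

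COL3A1, the type III collagen of soft connective tissue, was counted 405713 times in steers and 154733 times in bulls, at 1.27 on the log2 scale. The remaining 3 fall outside the 4 largest that were to be named, and are named after their values were seen. They were COL15A1 at 1.21, SPARC, which encodes a collagen-binding protein, at 1.08, and COL1A1 at 1.00, just past the limit. How many passed 2-fold depended on scaling: with total counts 4 genes lay above it (INSIG1, LPL, COL5A1 and COL3A1) and 2 below (TET3 and VEGFA).

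The genes that follow in this list were named after their values were seen. COL4A1, COL4A2, COL1A2 and LOXL2, a collagen cross-linking enzyme, lay between 0.87 and 0.93. The other matrix genes of the list, COL5A2, ELN, FBN1, COL5A3 and LAMC1, lay between 0.18 and 0.66. With total counts COL5A3 was at 0.03 and LAMC1 at -0.05. Genes of the list that are not named in the text had values of either sign. DNMT3A, a DNA methyltransferase, was at -0.75 (346 and 536 counts), and TET2, an enzyme that oxidises methylated cytosine, at -0.65 (187 and 270 counts). TET3, a relative of TET2 and the only gene of the list more than 2-fold lower, had 25 and 48 counts, at -1.06 (-1.82 to -0.34). TDG, a repair enzyme of the same pathway, was at -0.03 (-0.42 to 0.36), and DNMT3B had 0 and 1 counts.

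**Figure D5:**
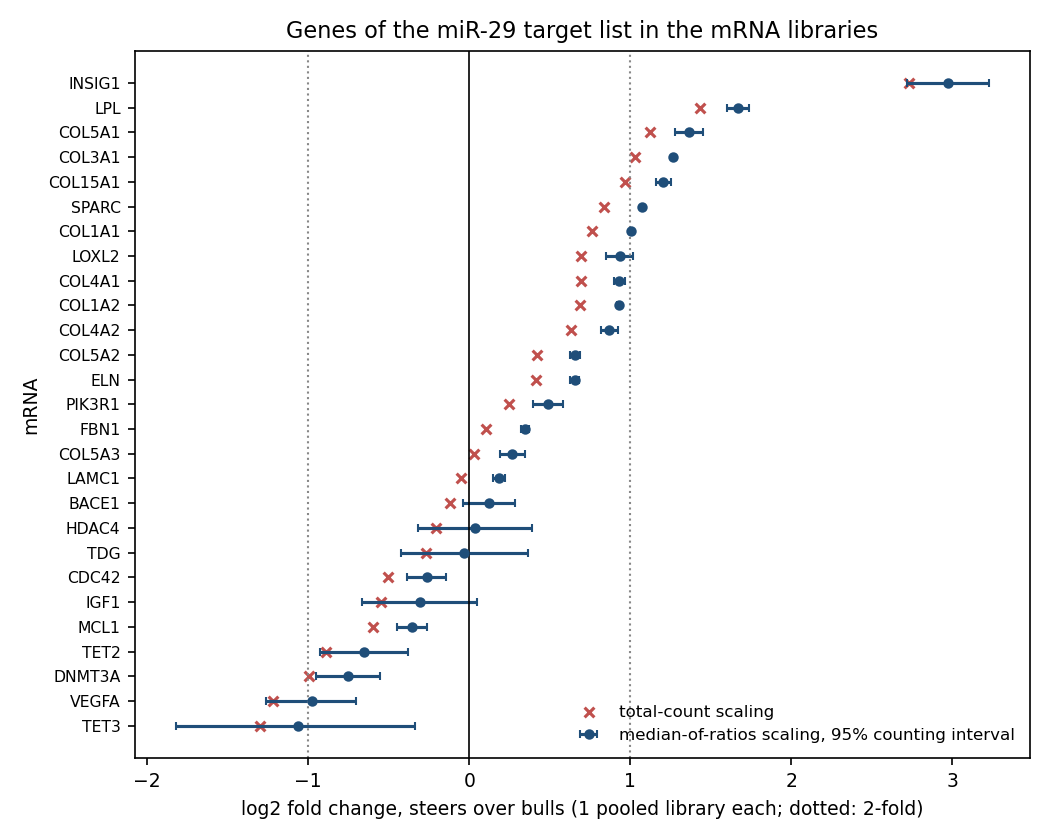
Log2 fold change of steers over bulls for the 27 genes of the miR-29 target list with at least 20 counts, from 1 pooled mRNA library per group. Blue points show median-of-ratios scaling with 95% counting intervals, red crosses total-count scaling, and dotted lines mark 2-fold; INSIG1 (2.97) and LPL (1.67) stand highest, followed by collagen genes.

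Of the miR-30 target list, all 22 genes were in the table and 21 had at least 20 counts. In steers 0 were more than 2-fold higher and 3 more than 2-fold lower, and the median log2 fold change was -0.02. SOCS3, an inhibitor of cytokine signalling, was counted 69 times in steers and 233 times in bulls, at -1.88 (-2.29 to -1.48). The other two had fewer than 100 counts over both libraries and are named after their values were seen. RUNX2 had 20 and 55 counts, at -1.58 (-2.40 to -0.82), and SOCS1 had 14 and 38, at -1.56 (-2.56 to -0.65).

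All 13 genes of the miRNA machinery had at least 20 counts, with 0 more than 2-fold higher and 1 more than 2-fold lower in steers. DROSHA, the nuclease of the first cut of the primary transcript, was counted 174 times in steers and 131 times in bulls, at 0.29 (-0.05 to 0.63). DICER1, the nuclease of the second cut, had 209 and 175, at 0.13 (-0.16 to 0.43). AGO2, the slicing Argonaute, is listed under the older symbol EIF2C2 with 253 and 218 counts, at 0.09 (-0.17 to 0.36). TNRC6B, a partner of the Argonautes, was the gene below 2-fold, with 104 and 220 counts, at -1.20 (-1.55 to -0.86). The other 12 genes lay between -0.74 for AGO4 and 0.65 for XPO5, which exports precursors from the nucleus.

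The mRNA libraries held transcripts of fat cells and of muscle. PLIN1, the lipid droplet coat protein of adipocytes, was counted 4499 times in steers and 5386 times in bulls, and ADIPOQ, an adipocyte hormone, 4513 and 6651. ACTA1, the actin of skeletal muscle, was counted 13852 and 19910 times, and MYH7, the myosin of slow fibres, 675 and 2906 times. These counts are unscaled. After scaling, PLIN1 was at -0.38, ADIPOQ at -0.68 and ACTA1 at -0.65 on the log2 scale. Apart from LPL, the 5 adipocyte markers lay between -1.06 for FABP4 and 0.32 for PPARG, and the 7 muscle markers between -2.23 for MYH7 and 1.15 for MYH1. Both lists thus held genes of either sign, and LPL was higher in steers, at 1.67. The part of muscle in the differences between the mRNA libraries was not tested.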

How the data were processed

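The miRNA values are raw counts per mature sequence, deposited by the authors without normalization. Per the study's methods, adaptors, low-quality reads and reads under 15 bases were removed, BWA placed the rest on miRBase 21 and on a bovine genome build, further miRNAs were predicted with miRDeep, and remaining reads were searched against human, mouse and rat miRNAs. The submitters' processing notes name BWA and a human build, GRCh37.p13, for the cattle samples, a disagreement with the methods that the counts do not settle. The mRNA counts come from reads that the authors aligned with MapSplice 2.1.8, and the counting program is not given in the sources used here.

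All sequences passing filterByExpr were fitted together in edgeR 4.0.16 (R 4.3.3) using TMM factors and the functions glmQLFit and glmQLFTest with group as the only term, and Benjamini-Hochberg adjustment over all of them. SE is the absolute log2 fold change over the square root of F. Ratios were compared by exact permutation in scipy 1.17.1. The mRNA libraries were scaled by median-of-ratios factors (1.04 in steers, 0.959 in bulls), with 95% Clopper-Pearson intervals. These cover counting error alone, and they can be too narrow where several reads stem from 1 molecule. The fit was tested on simulated data. Alternatives were other scalings and filters, DESeq2 1.42.0, limma-voom, a replicate block, known bovine miRNAs alone, no fold change threshold, and each library left out.

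Every member is named, and of the mRNA lists those past 2-fold with at least 100 counts in both libraries together, the 4 largest in each direction, with NFYC, DICER1, DROSHA and AGO2. Members and lists were chosen with earlier results of these data known. Sequence preferences of library preparation affect comparisons of level between different miRNAs. The labels do not say that libraries came from separate extractions, so p-values measure the spread between these libraries. The value of 1 gene of the lists is not reported here.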

Additional observations from a re-analysis of the deposited data

How the results depend on the processing

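The 8 members with a log2 fold change below -0.5 stayed below 0 under each of the 14 refits tried, but their size rested on single libraries: without the first library of bulls miR-29c was at -0.07, miR-30c and miR-30f at -0.22, miR-29b at -0.23, miR-30e-5p at -0.32, miR-29a at -0.51 and miR-29d-3p at -0.54. Of 168 member values under those refits, 148 kept their direction and their side of the threshold, 4 became calls and 16 changed sign, the latter in miR-30d, miR-29d-5p, miR-30b-3p and miR-30a-5p. Some passed the p threshold but not the fold limit: miR-29a (adjusted p = 0.0205), miR-30b-5p (0.0273) and miR-30e-5p (0.0447) in edgeR with known bovine miRNAs alone, and miR-29a (adjusted p = 0.0489) with the replicate block. MiR-30d (-0.07) was at 0.0043 with RLE scaling and with DESeq2, 0.0021 with limma-voom and 0.0015 with the replicate block, and at 0.11 with upper-quartile scaling and with known bovine miRNAs alone; leaving out each library in turn gave -0.49 to 0.61. MiR-29d-5p (0.05) was at -0.51 with total counts, -0.071 with total counts without miR-143 and miR-10b, -0.20 with limma-voom and -0.13 with the replicate block, and ran from -1.08 to 0.69 with a library left out. MiR-30b-3p was at -0.12 with total counts, and miR-30a-5p ran from -0.0021 to 1.35 with a library left out. Total counts moved the median of all sequences from -0.07 to -0.56, and relative to that median the members' median was -0.59 instead of -0.63, but -0.25 to -1.01 with a library left out. Members called lower were 0 under all scalings and filters, and 0 to 2 with a library left out; those called higher were 0 to 1. Leaving out a library moved the log2 difference of the summed miR-29 members (-0.92) to between -1.26 and -0.47 and that of the miR-30 members (0.12) to between -0.41 and 0.75, and total counts moved the latter to -0.35. Over all sequences, 76 higher and 76 lower calls became 1 and 0 with total counts, 31 and 36 without miR-143 and miR-10b, 34 and 36 with no filter beyond 1 count, 101 and 52 with upper-quartile scaling, and 10 to 90 higher and 3 to 71 lower with a library left out. The causes were not tested.

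The replicate numbers are not said to pair animals. The differences between libraries 1 and 2 correlated across sequences between steers and bulls (r = 0.30). With the replicate number as a block, 1 member was called lower, miR-30e-5p at -1.02 (adjusted p = 0.0342 from edgeR), and over all sequences 252 were called in either direction instead of 152.

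In the mRNA lists, total counts gave 4 higher and 2 lower genes of the miR-29 targets. A minimum of 100 counts left 0 lower genes there and 1 of the miR-30 targets, and no filter beyond 1 count gave 2 lower miR-29 targets. The gene added by the latter, DNMT3B, had 0 counts in steers and 1 in bulls. Depth limits miR-29e, miR-29d-3p and miR-30b-3p, which had at most 25 counts in a library.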
